A study of Ambystoma mexicanum with 12 samples.

Results

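The cytosolic ribosomal proteins are the 59 genes on the axolotl array whose annotated symbol has the form of a small-subunit (RPS), large-subunit (RPL) or stalk (RPLP) ribosomal protein, kinases of the RPS6K family left out. They were measured by 74 of the 20035 probe sets tested and are 59 of the 8639 genes with a symbol. Each gene was represented by its probe set of highest mean over the 12 arrays. Of 77 canonical symbols looked for, 57 were analysed, and the other 2 members were the paralogs RPL7L1 and RPL22L1. By symbol, the small, 40S subunit accounted for 22 members and the large, 60S subunit for 37. The 2 paralogs were counted with the 60S subunit, though they are not among its canonical proteins. The other 20 canonical symbols were not analysed here.

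Ribosomal proteins assemble with ribosomal RNA in the nucleolus into the subunits that translate every messenger RNA. In vertebrates their transcripts start with a terminal oligopyrimidine (TOP) tract, through which the mTORC1 pathway controls how much of them is translated, and MYC promotes the production of new ribosomes. The proteins are needed in near-equal numbers. Their messenger RNAs are abundant in almost every cell and are often taken as references for other genes.

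RNA came from full-thickness 2 mm punch biopsies of the body skin of adult white axolotls, given as 2 years old and male, that carried no transgene or compound as far as the methods say. Wounds of 3 ages, 2, 14 and 21 days post injury (dpi), gave 3 arrays each and were set against 3 arrays of uninjured skin. The titles and tissue labels describe this design, whereas the treatment text of the labels describes a spinal cord procedure with pooled animals, and 1 label gives 7 days for the arrays titled 14 days. The methods say that the uninjured and wound samples came from 3 separate adult males, and do not say if the groups shared animals. The titles were followed, and it was not settled if the RNA of an array came from 1 animal or several, so the p-values measure the spread between these arrays.

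The values were log2 signals, on which a difference of 1 is a 2-fold change. The 12 arrays had medians of 5.52 to 5.61 and correlated with each other over probe sets at r of 0.924 to 0.994. Epidermal markers (KRT8 at a mean log2 signal of 13.10, EPCAM at 13.18, COL17A1 at 11.70) and the dermal marker COL3A1 (12.72) were well above the array medians. The epidermal regulator TP63 (6.92, lowest array 5.96) and the dermal proteoglycan DCN (6.74, lowest array 5.47) were nearer to them, and LUM, at 10.53, ranged between 4.59 and 12.86 over the arrays, while KRT5, KRT14 and KRT15 had no probe set of that name here. The mean of 18 skeletal muscle markers, each set relative to its own mean over the arrays, was -3.19 to -0.11 at 2 dpi, -1.21 to 1.32 at 14 dpi, 0.35 to 1.87 at 21 dpi and -0.75 to 1.91 in uninjured skin. By limma, of the markers measured, muscle had 0 higher and 5 lower of 18 at 2 dpi and none past the threshold later, where 4 were lower at 14 dpi and 1 was higher at 21 dpi at an unadjusted p under 0.05. Fibroblast markers had 6 lower of 15 at 2 dpi and 4 and 5 higher at 14 and 21 dpi. Neutrophil and macrophage markers had 8, 11 and 11 higher of 17 at 2, 14 and 21 dpi, and epidermis markers had 3 higher, 2 higher and 1 lower, and 1 lower of 17. Of 3 erythrocyte markers 1 was higher, at 21 dpi. All probe sets had 5.42%, 4.56% and 6.62% higher and 3.86%, 2.56% and 5.99% lower at 2, 14 and 21 dpi. The 1 epidermis marker of 17 that was lower at 21 dpi was near that share. At an unadjusted p under 0.05 by limma, 9.91% of all probe sets were lower at 14 dpi and 13.1% higher at 21 dpi.

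On every array the ribosomal protein genes were among the brightest probe sets. The median member lay between 13.62 and 13.80, when the highest value of any probe set was 14.33 to 14.58, and 31 to 45 of the 59 members were within 1 log2 unit of that top. The lowest of these counts was on 14 dpi replicate 1 and the next, 37, on 2 dpi replicate 2. A mean of at least 13 was reached by 47 members.

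The highest signals belonged to RPL23, RPS27 and RPS12. RPL23, a 60S protein at the interface between the subunits, read 14.06, 14.05 and 14.30 at 2 dpi, 14.08, 14.15 and 14.18 at 14 dpi, 14.38, 14.09 and 14.27 at 21 dpi, and 14.30, 14.27 and 14.13 in uninjured skin. RPS27, a zinc finger protein of the 40S subunit, stayed between 14.04 and 14.25 on the 12 arrays. RPS12, of the 40S head, stayed between 13.93 and 14.26. All the groups overlapped for these genes, and RPS3, a 40S head protein at the messenger RNA entry, varied least of those described here, between 13.90 and 14.01.

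The other 12 members ranged down to near the array medians. They were RPL22 (12.58), RPS24 (12.54), RPL22L1 (11.55), RPL7L1 (11.34), RPL38 (10.10), RPL21 (9.59), RPL34 (9.20), RPS6 (8.80), RPL28 (8.12), RPL19 (6.51), RPL14 (5.74) and RPL23A (5.17), as mean log2 signals over the 12 arrays. These are positions on the array's scale and not an order of abundance, since probe sets differ in how well they bind. RPL14 read between 5.19 and 6.25 and RPL23A between 5.02 and 5.50, about the array medians.

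**Figure D1:**
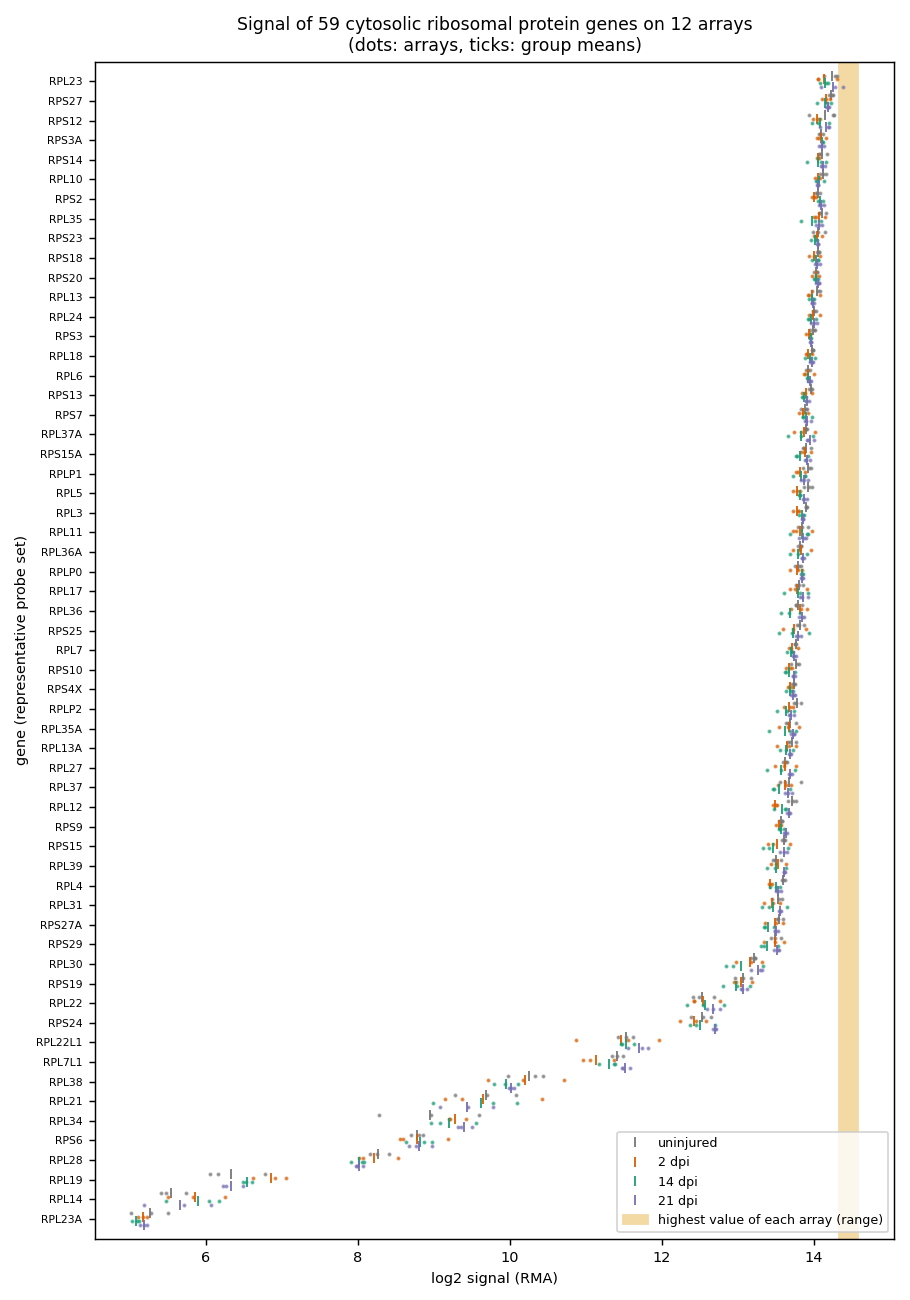
Log2 signal (x axis) of the 59 ribosomal protein genes (y axis, ordered by mean), with a dot for each array, a tick for each group mean and a band for the range of the highest value of the 12 arrays. The 47 members at a mean of 13 or more have their means below the band, which RPL23 enters on 21 dpi replicate 1, and the other 12 spread down to 5.17.

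The question put to these genes was whether their transcripts differed between wounds and uninjured skin. By limma, with p-values adjusted over all 20035 probe sets and a threshold of 0.05, 0 of 59 members were higher and 0 lower at 2 dpi, when 5.42% of all probe sets were higher and 3.86% lower. The same counts of 0 and 0 held at 14 dpi (all probe sets 4.56% higher and 2.56% lower) and at 21 dpi (6.62% and 5.99%). At an unadjusted p under 0.05, 1 member was higher and 4 were lower at 2 dpi, against 13.5% and 10.6% of all probe sets, and 0 members in either direction at 14 dpi (11.9% and 9.91% of all probe sets) and at 21 dpi (13.1% and 13.4%). In biopsies of mixed cells, fewer cells of a type and less RNA per cell cannot be told apart.

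The intervals give the sizes that the spread between these arrays, after RMA, leaves room for. They do not cover any joint shift of the set that normalisation or compression near the top of the scale removed, which was not tested. For RPL14 and RPL23A, whose signals lay about the array medians, they bound the signal only. Whether such dim probe sets follow their transcripts was not tested. The 95% interval of the change lay within 2-fold either way for 59 of 59 members at 2 dpi, 59 at 14 dpi and 57 at 21 dpi. It lay within 0.50 log2 units (1.41-fold) for 52, 53 and 53 of them. Those outside it at 2 dpi were RPL14, RPL19, RPL21, RPL22L1, RPL34, RPL38 and RPL7L1, which all had means under 13. For the 47 bright members the change ranged over -0.22 to 0.02 at 2 dpi, -0.17 to 0.05 at 14 dpi and -0.08 to 0.11 at 21 dpi, and no interval bound was farther from 0 than 0.39, 0.46 and 0.34 at these times.

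**Figure D2:**
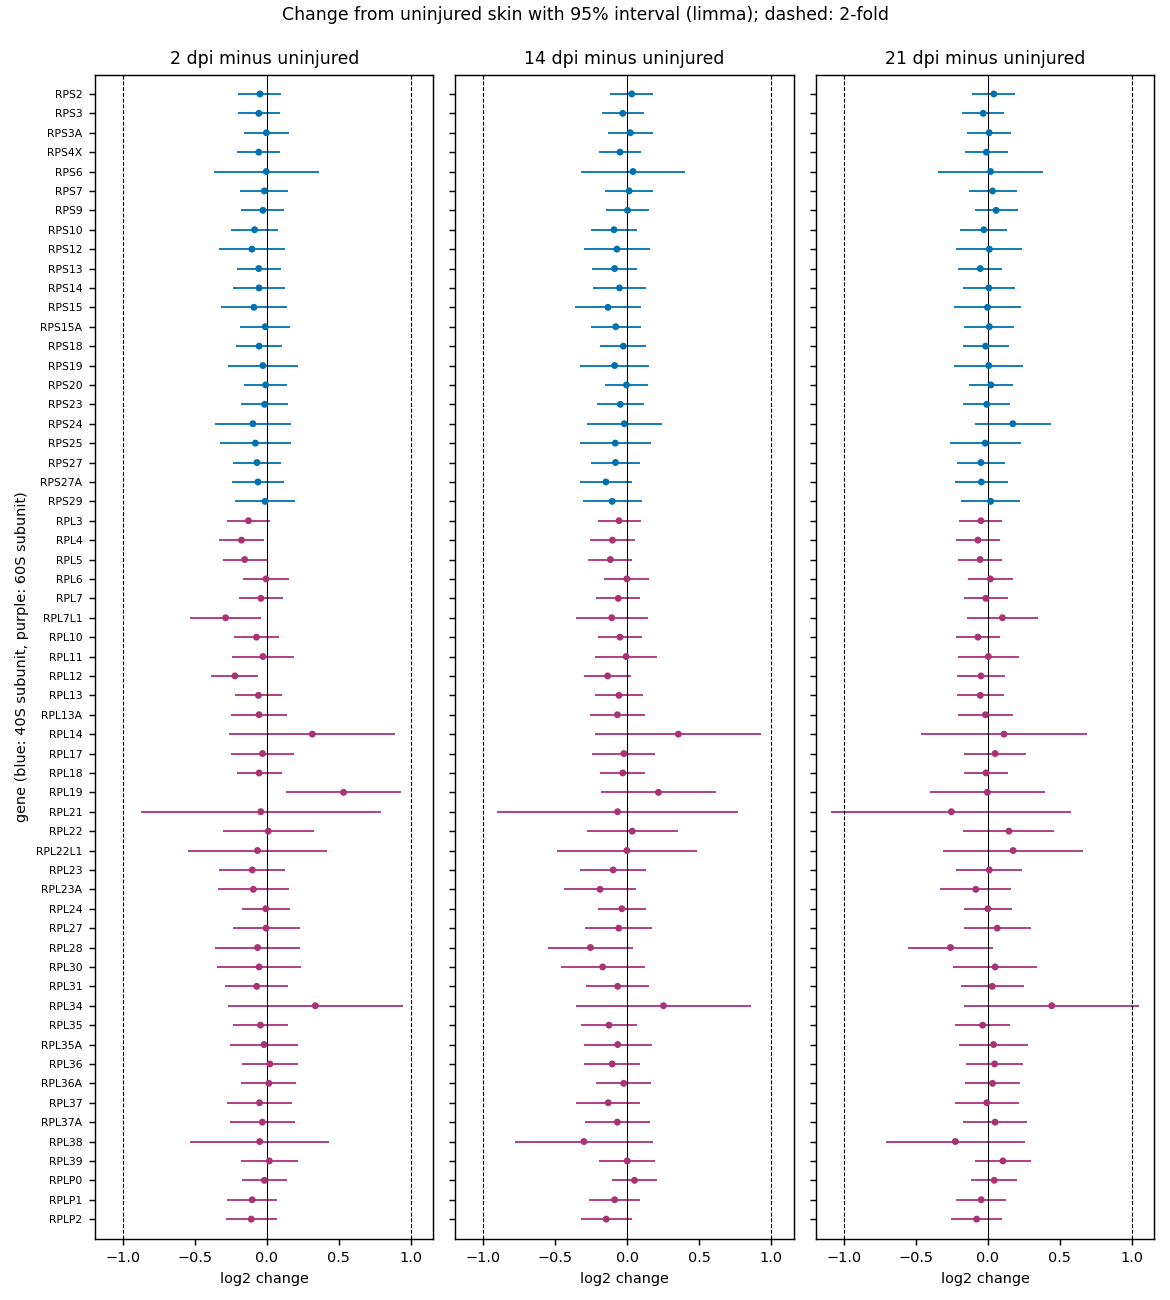
Log2 change from uninjured skin (x axis) with its 95% interval for the 59 members (y axis, 40S in blue above 60S in purple) at 2, 14 and 21 dpi, dashed lines marking 2-fold. The intervals of the 47 bright members stay within 0.46 of 0, and the wide ones belong to dim members such as RPL21, RPL34 and RPL14.

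Bright probe sets of other genes did pass the test on the same arrays. Of 142 probe sets of mean 13 or more that measured no ribosomal protein of the set, 7 (4.93%), 10 (7.04%) and 11 (7.75%) were called at 2, 14 and 21 dpi. Of all probe sets, 9.28%, 7.12% and 12.6% were called in either direction. The changes of the 142 lay between -2.09 and 1.13. Among these 142, LGALS1, which encodes galectin-1, had a mean of 13.38, under that of the median member. It was 0.90 higher at 14 dpi and 1.13 higher at 21 dpi (adjusted p by limma, 0.00600 and 0.00162). A probe set of the ferritin heavy chain gene FTH1 with a mean of 14.10 was 0.35 higher at 14 dpi (adjusted p by limma, 0.0278). EEF1A1, the elongation factor that brings transfer RNA to the ribosome and is itself made from a TOP messenger RNA, had a probe set of mean 13.45 that was lower at 2 dpi (-0.34, adjusted p by limma 0.0480). That call was lost without uninjured replicate 1 or 2, without any 2 dpi or 21 dpi array and without 14 dpi replicate 1 (changes -0.35 to -0.30). It was also lost with probe sets of low signal left out, array medians subtracted (-0.31), replicate number as a block or only the 2 groups. With the mean of the muscle markers as a covariate it was lost at an unchanged size (-0.34). The brightest EEF1A1 probe set, of mean 14.13, had a change of -0.09, and that of mean 13.70 had -0.25. Dimmer ones, of means 8.91, 9.96 and 10.74, had changes of 0.41, 0.24 and 0.31. The median size of the change was 0.05, 0.07 and 0.03 for the bright members and 0.11, 0.10 and 0.11 for these other bright probe sets, against 0.17, 0.16 and 0.18 for all probe sets. The bright members also had a lower median residual SD, 0.0642, than the other bright probe sets (0.105), the 12 dim members (0.224) or all probe sets (0.180). Whether signals this near the top of the scale were compressed for the ribosomal protein probes was not tested.

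Most of the small differences at 2 and 14 dpi had the same direction, and at 21 dpi they did not. Of 59 members, 52 had a change below 0 at 2 dpi, 49 at 14 dpi and 28 at 21 dpi. The median change was -0.05, -0.06 and 0.00, beside 0.02, 0.01 and -0.01 for all probe sets. With array medians subtracted, the median change of the members at 2 dpi was smaller in size. Leaving out replicate 1 of 2 dpi moved the median change of that day to 0.00, and leaving out its replicate 3 moved it to -0.09. For 14 dpi it became -0.03 when replicate 1 of that day was dropped and -0.10 when replicate 2 was. These comparisons share the uninjured arrays, and the SD between arrays of a group of the members' median level was 0.0526, about the size of the shift. On each array the members' median deviation from their own means was -0.09, -0.03 and 0.07 at 2 dpi, -0.12, 0.04 and -0.04 at 14 dpi, 0.05, 0.00 and 0.02 at 21 dpi, and 0.03, 0.01 and 0.03 in uninjured skin. The lowest and the highest of these lay in wounds of the first 14 days, so that within 2 dpi 3 members were above their own mean on replicate 1 and 47 on replicate 3, and within 14 dpi 10 on replicate 1 and 42 on replicate 2.

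Without overlap between the groups, 0 members were higher and 9 lower at 2 dpi (RPL10, RPL12, RPL3, RPL4, RPL5, RPLP2, RPS14, RPS2 and RPS4X), when 14.9% and 11.6% of all probe sets had such a separation, so that 9 of 59 is near the background. At 14 dpi 1 was higher and 9 lower, against 13% and 10.2% of all probe sets, and at 21 dpi 7 were higher and 5 lower, against 16.1% and 15.8%.

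By position in the ribosome, the 22 members of the 40S subunit had a median change of -0.05, -0.05 and 0.01 at 2, 14 and 21 dpi. The 37 counted with the 60S subunit, the paralogs included, had -0.05, -0.07 and 0.00. At 2 dpi every 40S member had a change between -0.10 and 0.00, the dim RPS6 and RPS24 included. RPS6, whose protein is phosphorylated downstream of mTORC1, changed by 0.00 at 2 dpi, 0.04 at 14 dpi and 0.02 at 21 dpi.

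The P stalk, which draws elongation factors to the ribosome, is made of RPLP0, RPLP1 and RPLP2 and stands on RPL12. RPLP0, often used as a reference gene in quantitative PCR, read 13.69, 13.79 and 13.85 at 2 dpi, 13.85, 13.85 and 13.83 at 14 dpi, 13.85, 13.82 and 13.84 at 21 dpi, and 13.80, 13.75 and 13.82 in uninjured skin. Its changes were -0.02, 0.05 and 0.05, with 95% intervals of -0.18 to 0.14 at 2 dpi, -0.11 to 0.21 at 14 dpi and -0.11 to 0.20 at 21 dpi. The 14 and 21 dpi arrays were counted as above all the uninjured ones, though 21 dpi replicate 2 and uninjured replicate 3 both read 13.82. RPLP1 changed by -0.10, -0.09 and -0.05 and RPLP2 by -0.11, -0.15 and -0.08, none past the threshold. RPLP2 read 13.60, 13.68 and 13.72 at 2 dpi and 13.52, 13.73 and 13.64 at 14 dpi, against 13.83, 13.76 and 13.74 in uninjured skin, and neither wound group overlapped the uninjured arrays.

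RPL12, the base of the stalk, came nearest to the threshold at 2 dpi of all members. It read 13.46, 13.52 and 13.49 at 2 dpi, 13.48, 13.62 and 13.64 at 14 dpi and 13.64, 13.66 and 13.69 at 21 dpi, against 13.72, 13.66 and 13.76 in uninjured skin. All arrays at 2 and 14 dpi lay below all the uninjured ones. At 2 dpi the change was -0.22 (SE 0.07), and the adjusted p by limma was 0.0932, or 0.0375 with a mean-variance trend in the variance model. That was the only 1 of 24 alternatives to pass, and in another the adjusted p by limma reached 0.338.

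RPL4, RPL5 and RPL3 were also without overlap at 2 dpi. They, RPL12 and RPL19 were picked for description after their values were seen. RPL4, a core 60S protein with an arm in the exit tunnel, read 13.41, 13.45 and 13.40 at 2 dpi, against 13.62, 13.60 and 13.57 in uninjured skin (change -0.18, adjusted p by limma 0.151). RPL5, which binds the 5S ribosomal RNA together with RPL11 and can restrain MDM2, read 13.73, 13.78 and 13.81 at 2 dpi, against 13.98, 13.87 and 13.94 in uninjured skin (change -0.15, adjusted p by limma 0.206). Its other probe set had a change of -0.11, also without overlap, whereas RPL11 changed by -0.03. RPL3, a core protein near the peptidyl transferase centre, read 13.79, 13.81 and 13.72 at 2 dpi, against 13.90, 13.89 and 13.90 in uninjured skin (change -0.13, adjusted p by limma 0.285). None of these differences passed the threshold, though the groups were apart for each gene.

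RPL19, a 60S protein with a low signal here, was the member with an unadjusted p under 0.05 in the other direction. It read 7.05, 6.62 and 6.91 at 2 dpi, 6.61, 6.49 and 6.53 at 14 dpi and 6.49, 6.22 and 6.26 at 21 dpi, against 6.05, 6.16 and 6.77 in uninjured skin, so that uninjured replicate 3 overlapped the 2 dpi arrays. The change at 2 dpi was 0.53 (adjusted p by limma 0.0977), and without uninjured replicate 3 it was 0.76 (adjusted p by limma 0.00740). Only 2 of 24 alternatives passed, and the adjusted p by limma reached 0.576. At 21 against 2 dpi the change was -0.54 (adjusted p by limma 0.0577, or 0.0465 without uninjured replicate 1 and 0.0115 without uninjured replicate 3). There 5 of 24 alternatives passed, with an adjusted p by limma of up to 0.466. RPL34, also dim, read 9.50, 9.31 and 9.35 at 21 dpi, against 8.96, 8.28 and 9.59 in uninjured skin, a change of 0.44 (adjusted p by limma 0.350). Without uninjured replicate 3 that change was 0.77 (adjusted p by limma 0.0451). Only 2 of 24 alternatives passed for RPL34, and the adjusted p by limma reached 0.838.

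**Figure D3:**
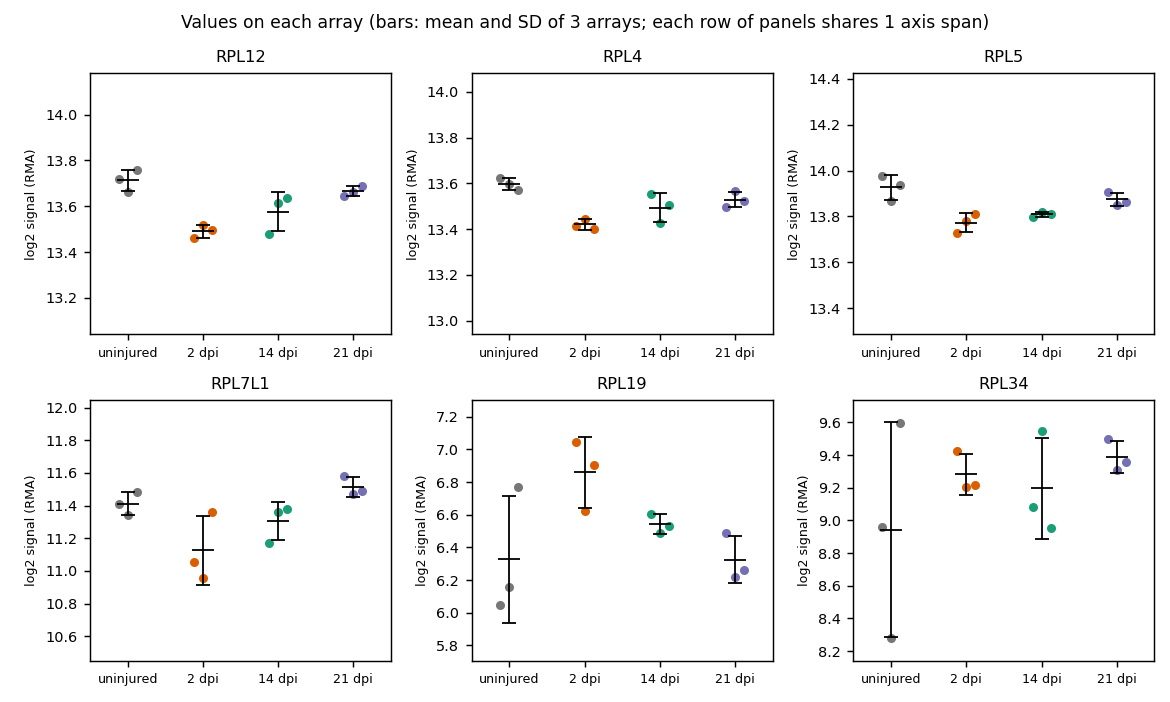
Log2 signal (y axis) on each array by group (x axis) for RPL12, RPL4, RPL5, RPL7L1, RPL19 and RPL34, with the mean and SD of 3 arrays as bars and the same axis span across each row of panels. The 2 dpi arrays of RPL12, RPL4 and RPL5 lie below all the uninjured arrays, and uninjured replicate 3 lies among the 2 dpi arrays for RPL19.

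Between the wound groups, 1 member passed the threshold. It was a paralog, and no canonical member did. At 21 dpi against 2 dpi, 1 of 59 members was higher and 0 lower, when 9.39% of all probe sets were higher and 12.4% lower, and at an unadjusted p under 0.05 by limma 3 were higher (RPL12, RPL7L1 and RPS24) and 1 lower (RPL19), against 14.6% and 19% of all probe sets. At 14 against 2 dpi 0 were higher and 0 lower (3.92% and 3.62% of all probe sets), and at 21 against 14 dpi 0 and 0 (0.0998% and 0.0699%), with 0 members at an unadjusted p under 0.05 by limma in both, against 10.2% higher and 11.8% lower of all probe sets at 14 against 2 dpi and 4.27% and 5.91% at 21 against 14 dpi. The median change was 0.04 at 21 against 2 dpi, 0.00 at 14 against 2 dpi and 0.06 at 21 against 14 dpi, beside -0.02, 0.00 and -0.02 for all probe sets. At 21 against 2 dpi, 10 members were higher and 1 lower with no overlap, against 18.3% and 22.6% of all probe sets. At 14 against 2 dpi 1 was higher and 1 lower (12.3% and 13.1% of all probe sets), and at 21 against 14 dpi 5 and 1 (6.45% and 9.29%).

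The member that passed was RPL7L1, a relative of RPL7 whose yeast counterpart takes part in 60S assembly. It read 11.58, 11.47 and 11.49 at 21 dpi, against 11.06, 10.96 and 11.36 at 2 dpi, a change of 0.39 (SE 0.11, adjusted p by limma 0.0320), with all 3 arrays at 21 dpi above the 3 at 2 dpi. At 14 dpi it read 11.17, 11.36 and 11.38, and in uninjured skin 11.41, 11.34 and 11.49. The difference from uninjured skin was -0.29 at 2 dpi (adjusted p by limma 0.149, or -0.40 and 0.0441 without 2 dpi replicate 3), -0.11 at 14 dpi and 0.10 at 21 dpi. At 2 dpi that was the only 1 of 24 alternatives to pass. The call at 21 against 2 dpi was lost without 2 dpi replicate 1 (0.35, adjusted p by limma 0.0930) or 2 (0.30, 0.120) and without 21 dpi replicate 1 (0.35, 0.110), 2 (0.41, 0.0582) or 3 (0.40, 0.0787). When the mean of the muscle markers entered the fit as a covariate, the change was 0.46 (adjusted p by limma 0.147). The muscle markers were higher at 21 than at 2 dpi for 6 of 18 and lower for 0, against 9.39% and 12.4% of all probe sets.

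RPL22L1, the paralog of the RNA-binding 60S protein RPL22, read 10.87, 11.55 and 11.97 at 2 dpi, where its own values were more spread than in the other groups. They were 11.46, 11.63 and 11.48 at 14 dpi, 11.55, 11.82 and 11.73 at 21 dpi and 11.62, 11.53 and 11.42 in uninjured skin, and all groups overlapped. Its changes were -0.07, 0.00 and 0.18 at 2, 14 and 21 dpi, beside 0.01, 0.03 and 0.15 for RPL22. None passed the threshold.

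Of the members, 14 had more than 1 probe set, 15 further ones in all, and these did not always follow the bright one. At 21 dpi against uninjured skin 1 of the 15 was lower and 0 higher. Of all probe sets 5.99% were lower and 6.62% higher, so the count of 1 was near the background. At 21 against 2 dpi 1 was higher and 3 lower, when 9.39% of all probe sets were higher and 12.4% lower. With 15 probe sets these counts were near the background too. The further probe set of RPL31, an exit-tunnel rim protein, read 8.21, 8.60 and 9.06 at 2 dpi, 8.17, 7.82 and 8.13 at 14 dpi and 7.67, 7.80 and 7.66 at 21 dpi, against 8.15, 8.58 and 8.62 in uninjured skin. It was -0.74 from uninjured skin at 21 dpi (adjusted p by limma 0.0377) and -0.91 from 2 dpi (adjusted p by limma 0.0100), whereas the bright probe set differed by 0.03 and 0.10. The first of these calls was lost without 14 dpi replicate 3, without 2 dpi replicate 2, without any of the 3 arrays at 21 dpi and without uninjured replicate 2 or 3 (changes -0.79 to -0.66), and the second was -0.42 (adjusted p by limma 0.258) with the muscle covariate.

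RPS10, of the 40S head, had further probe sets that moved apart. One read 8.85, 9.02 and 9.11 at 21 dpi, against 9.45, 9.75 and 9.96 at 2 dpi (change -0.73, adjusted p by limma 0.0103, and -0.33 with 0.266 under the muscle covariate). The other read 10.82, 10.63 and 10.77 at 21 dpi, against 10.23, 10.43 and 10.54 at 2 dpi (change 0.34, adjusted p by limma 0.0419). The bright probe set of the gene differed by 0.06. The second of these calls was lost without 2 dpi replicate 1 or 2, 14 dpi replicate 1 or 3 or 21 dpi replicate 1 or 3, with changes of 0.25 to 0.36. It was also lost with the muscle covariate (0.39). Against uninjured skin at 21 dpi neither further probe set of RPS10 passed (-0.53 and 0.33, adjusted p by limma 0.0578 and 0.0676). The further probe set of RPL23 lay under the arrays' lower quartile of 4.04 to 4.11, at 3.40, 3.61 and 3.65 at 21 dpi, against 3.90, 3.85 and 3.79 at 2 dpi (change -0.29, adjusted p by limma 0.0320). It lost that call without 21 dpi replicate 1 or any of the 3 arrays at 2 dpi, with changes of -0.32 to -0.22.

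The further probe set of RPL3 varied most between arrays, from 4.51 to 8.28. It read 5.99, 4.51 and 4.71 at 2 dpi, 5.48, 7.43 and 5.18 at 14 dpi and 7.98, 6.19 and 7.08 at 21 dpi, against 8.20, 8.28 and 5.35 in uninjured skin. The muscle marker mean on the same arrays was -0.11, -2.37 and -3.19 at 2 dpi, -0.89, 1.32 and -1.21 at 14 dpi and 1.87, 0.35 and 1.21 at 21 dpi, against 1.91, 1.86 and -0.75 in uninjured skin. Both were high on the first 2 uninjured arrays, on 14 dpi replicate 2 and on 21 dpi replicate 1, and low on 2 dpi replicates 2 and 3. The change at 2 dpi was -2.21 (adjusted p by limma 0.144), and 0.19 with the muscle covariate, whereas the bright RPL3 probe set changed by -0.13. Which transcript this probe set reads was not tested.

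**Figure D4:**
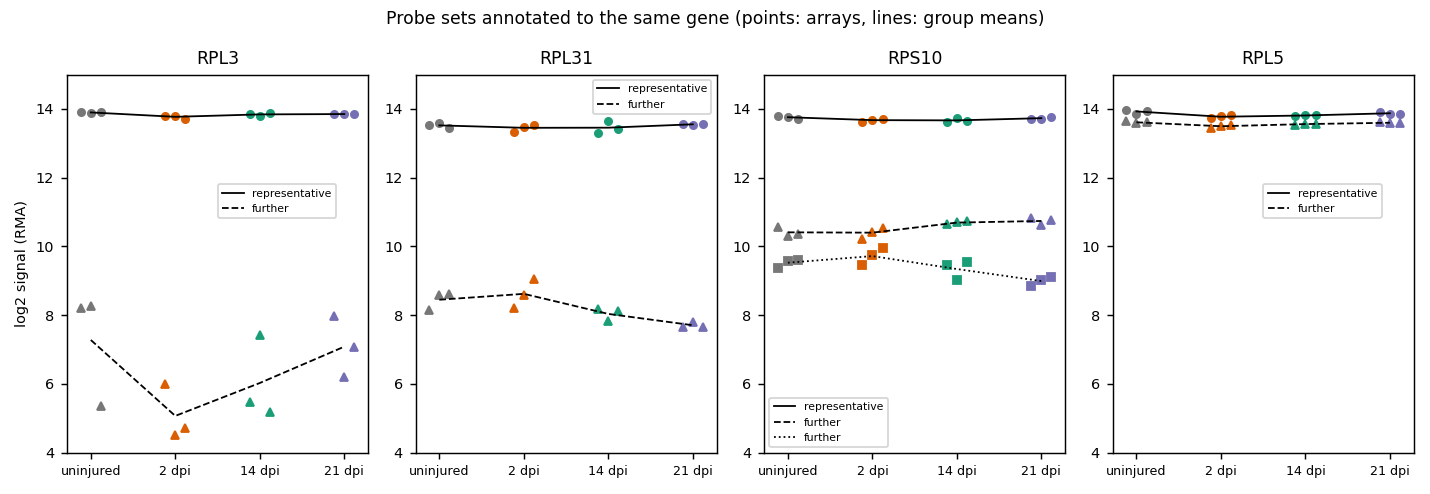
Log2 signal (y axis) of every probe set annotated to RPL3, RPL31, RPS10 and RPL5 by group (x axis), points being arrays and lines group means. The bright sets lie flat near 14, the RPL3 further set ranges from 4.51 to 8.28, and the further sets of RPS10 are farthest apart at 21 dpi.

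Genes that make ribosomes or answer the same signals were counted from lists of known function. FAU, which encodes a ribosomal protein of the 40S subunit under another name, changed by -0.03, -0.07 and -0.02 at 2, 14 and 21 dpi. Of 25 translation factors and other genes with TOP messenger RNAs, 0 were higher and 1 was lower at each time: EIF4A2, an RNA helicase of translation initiation, at 2 dpi (-0.80, adjusted p by limma 0.0139), and HNRNPA1, a splicing factor, at 14 dpi (-1.18) and 21 dpi (-1.07). These calls were lost for EIF4A2 without uninjured replicate 2 (-0.75) or with the muscle covariate (-0.49), and for HNRNPA1 without 14 dpi replicate 2 (-0.93) or uninjured replicate 1 (-1.03) at 14 dpi and without 21 dpi replicate 1 or 3 or uninjured replicate 1 at 21 dpi (-1.02 to -0.92). Of all probe sets, 3.86%, 2.56% and 5.99% were lower at 2, 14 and 21 dpi, and 1 of 25 was near these shares. At an unadjusted p under 0.05 by limma, 5, 6 and 3 of 25 were lower at these times, against 10.6%, 9.91% and 13.4% of all probe sets. In the other direction there were 0, 0 and 1 (13.5%, 11.9% and 13.1% of all probe sets). EEF1A1 was counted here by its brightest probe set, which was not called. The medians of the list were -0.15, -0.07 and -0.02.

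Some of the ribosome assembly factors passed the test. Of 86 measured, 0 were higher and 11 lower at 2 dpi (3.86% of all probe sets were lower), 0 and 14 at 14 dpi (2.56%) and 2 and 24 at 21 dpi (5.99%). The 2 higher at 21 dpi were 2.33% of the list, below the 6.62% of all probe sets that were higher. The median changes were -0.26, -0.28 and -0.36 at 2, 14 and 21 dpi. Fibrillarin, FBL, the methyltransferase of box C/D RNA particles, read 10.21, 9.38 and 9.77 at 14 dpi and 9.45, 9.58 and 9.50 at 21 dpi, against 10.94, 10.72 and 10.50 in uninjured skin (changes -0.94 and -1.21, adjusted p by limma 0.0135 and 0.00316). RRP9, of the U3 particle that processes 18S RNA, was 0.86, 0.76 and 0.91 lower at 2, 14 and 21 dpi, and NHP2, of box H/ACA particles, 0.49, 0.63 and 0.51 lower. NOP56, a partner of FBL, was lower at 2 dpi (-0.67) and had -0.19 and -0.13 later, and SBDS, which helps release a factor from the new 60S subunit, was higher at 21 dpi (0.54, adjusted p by limma 0.0239). The calls of FBL at 14 dpi (without uninjured replicate 1), of NHP2 at 2 dpi (without 2 dpi replicate 3 or uninjured replicate 1 or 2) and of SBDS (without any 21 dpi array or uninjured replicate 2 or 3) were lost, at changes of -0.83, -0.49 to -0.43 and 0.46 to 0.59. With the muscle covariate those of RRP9 (-0.74), NHP2 (-0.50) and NOP56 (-0.41) at 2 dpi were lost. For NHP2 the change was no smaller with it, and what these lost calls reflect was not tested.

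The number of lower assembly factors depended on the arrays. At 2 dpi (11) it was 7, 5 and 4 without 2 dpi replicate 1, 2 or 3, 6 without 21 dpi replicate 3, and 3, 4 and 23 without uninjured replicate 1, 2 or 3. At 14 dpi (14) it was 8 without 14 dpi replicate 2 or 3, and 7, 8 and 22 without uninjured replicate 1, 2 or 3. At 21 dpi (24) it was 14, 15 and 9 without 21 dpi replicate 1, 2 or 3, and 15 and 14 without uninjured replicate 1 or 2. With the muscle covariate it was 2 at 2 dpi. Proliferating cell markers moved with them, 5, 3 and 12 of 16 being lower and 0 higher at 2, 14 and 21 dpi (3.86%, 2.56% and 5.99% of all probe sets were lower). The mean deviation of these markers was -0.41 to 0.27, -0.60 to 0.18 and -0.52 to -0.42 at these times, against 0.54 to 0.79 in uninjured skin. The part of these cells in the result was not tested.

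Of 69 mitochondrial ribosomal proteins, which serve the separate ribosome of that organelle, 9, 8 and 14 were lower and 0 higher at 2, 14 and 21 dpi. Their medians were -0.15, -0.24 and -0.19, and 3.86%, 2.56% and 5.99% of all probe sets were lower at these times. MRPL12 was 0.74, 1.12 and 1.37 lower (adjusted p by limma 0.0208, 0.00388 and 0.00118), at 2 dpi not without 2 dpi replicate 1 or 3 or uninjured replicate 1 or 2 (-0.74 to -0.70). Without 1 array the lower count was 4 to 9 at 2 dpi (4 without 2 dpi replicate 1 or 2 or uninjured replicate 1 or 2), 1 to 10 at 14 dpi (1 without uninjured replicate 1, 3 without 14 dpi replicate 2 or 3 or uninjured replicate 2, 4 or 5 without 2 dpi replicate 2 or any 21 dpi array) and 6 to 16 at 21 dpi (7, 8 and 6 without 21 dpi replicate 1, 2 or 3, and 9 without uninjured replicate 1 or 2). Of 10 RNA polymerase I subunits and factors, 0, 1 and 3 were lower and 0 higher, beside the same shares of all probe sets. The lower ones were POLR1E at 14 dpi (-0.36) and POLR1E, POLR1B and POLR1C at 21 dpi (-0.50, -1.07 and -0.60). At 2 dpi 1 was higher and 2 were lower at an unadjusted p under 0.05 by limma, against 13.5% and 10.6% of all probe sets. The call of POLR1B was lost without 21 dpi replicate 2 or 3 or uninjured replicate 1 or 2 (-1.07 to -0.88), and that of POLR1E at 14 dpi without any array but 2 dpi replicate 3 and 21 dpi replicate 3 (-0.41 to -0.32).

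Of 18 regulators in the mTORC1 and MYC list, 2, 1 and 2 were higher and 2, 1 and 4 lower at 2, 14 and 21 dpi. All probe sets had 5.42%, 4.56% and 6.62% higher and 3.86%, 2.56% and 5.99% lower. With 18 genes, the 1 higher and 1 lower at 14 dpi were near these shares. DDIT4, an inhibitor of mTORC1 induced by stress, read 9.29, 8.88 and 10.01 at 2 dpi, against 6.19, 6.02 and 7.09 in uninjured skin (change 2.96, SE 0.33, adjusted p by limma 0.000680). MYC read 5.24, 5.12 and 4.65 at 2 dpi, 4.68, 5.02 and 4.98 at 14 dpi and 5.25, 5.11 and 5.06 at 21 dpi, against 6.07, 6.09 and 5.67 in uninjured skin, and was lower at each time (-0.94, -1.05 and -0.80), at 2 dpi not with the muscle covariate (-0.57) and at 21 dpi not without 21 dpi replicate 3 (-0.76) or uninjured replicate 2 (-0.73). Its signals lay about the array medians. MYCN was higher at 21 dpi (1.70, adjusted p by limma 0.00992).

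The other members of the list that passed did not share a direction. At 2 dpi RRAGC, a GTPase that brings mTORC1 to the lysosome when amino acids are present, was higher (0.79, adjusted p by limma 0.00616), and TSC2, an inhibitor of mTORC1, was lower (-0.58, adjusted p by limma 0.00701), with signals of TSC2 under the array medians. With the muscle covariate neither passed (0.54 and -0.45), nor did TSC2 with the mean of its probe sets (-0.15). MLST8, a subunit of the mTOR complexes, was higher at 14 and 21 dpi (0.54 and 0.56, adjusted p by limma 0.0492 and 0.0299). Its call was lost without any 1 of uninjured replicates 1 and 2 and the 3 arrays of the day itself (0.42 to 0.60), at 14 dpi also without 2 dpi replicate 2 or any 21 dpi array. The replicate block and only the 2 groups also lost it at both times. At 14 dpi a trend, quantile normalisation and the muscle covariate did so too. Of 24 alternatives, 9 passed at 14 dpi and 16 at 21 dpi. Lower at 21 dpi were RPS6KA1, a kinase of the ERK pathway that phosphorylates RPS6 (-0.52, adjusted p by limma 0.00767), RPS6KB1, the S6 kinase activated by mTORC1 (-0.86, adjusted p by limma 0.0308), and EIF4E, which binds the messenger RNA cap (-0.62, adjusted p by limma 0.0357). RPS6KA1 did not pass with the mean of its probe sets (-0.12). RPS6KB1 lost its call without any uninjured array or without 21 dpi replicate 1 or 3 (-0.89 to -0.71), and EIF4E without any 21 dpi array or uninjured replicate 1 or 2 (-0.67 to -0.41). The differences between the lists were not tested against each other.

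**Figure D5:**
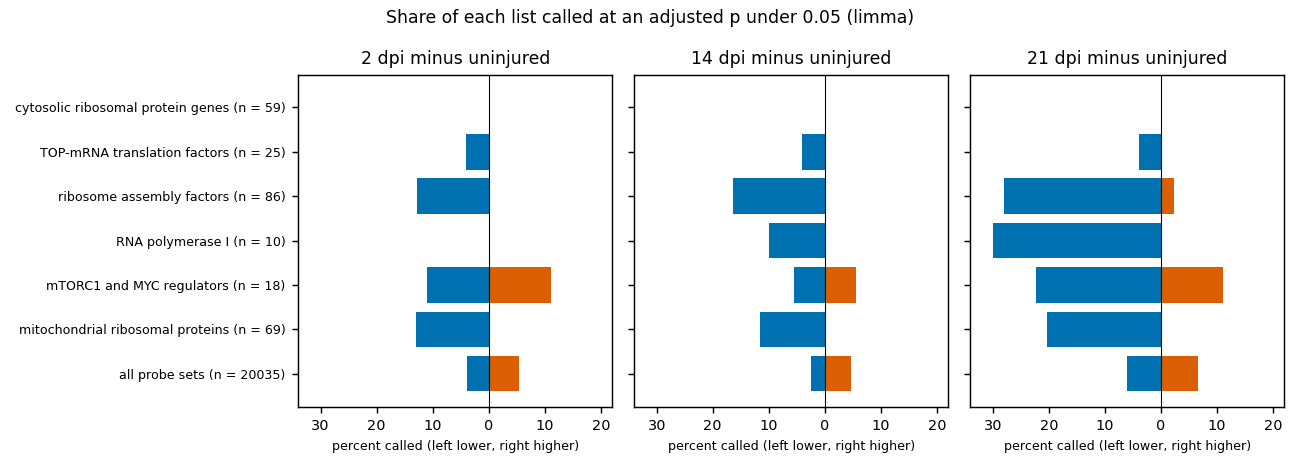
Percent of each list called lower (left of 0) or higher (right of 0) at an adjusted p under 0.05 (x axis) at 2, 14 and 21 dpi against uninjured skin, with the list and its number of measured genes on the y axis and all probe sets at the foot. The ribosomal protein bars are empty at the 3 times, and 12.8%, 16.3% and 27.9% of the assembly factors were lower.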

How the data were processed

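Total RNA from skin biopsies was hybridised to custom 1-colour Affymetrix axolotl arrays, 4 groups of 3. The deposited values are log2 signals, 1 for each probe set and array. The authors had made them with robust multi-array average (RMA), which corrects background, normalises and summarises probes, and the submitters' processing notes name Affymetrix Expression Console beside it. No version of either is given in the sources used here, and the unprocessed intensities were left aside.

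Of 20080 probe sets, 45 controls were left out. A linear model of the 4 group means was fitted to the others with limma 3.58.1 in R 4.3.3 (lmFit, eBayes), with 8 residual and 2.43 prior degrees of freedom. All 6 pairs of groups were compared, two-sided, with Benjamini-Hochberg adjustment inside each comparison and a threshold of 0.05. No filter on low signal was applied. For a single gene, an exact permutation test of 3 against 3 arrays cannot go below 0.1, so none was used. The number of arrays limits the precision.

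Symbols came from the array's annotation (10951 probe sets with 1 symbol, 0 with several, 9084 with none), and all 59 member symbols were also in RefSeq's gene table of assembly UKY_AmexF1_1. The members, the gene lists and the choice of described genes were made with earlier results of these data known. Values per array were to be given for members past the threshold, paralogs, the 3 highest and 3 lowest signals, the stalk proteins and members whose probe sets differed by over 1 in log2 change. The fit was run on simulated data with independent noise and changes larger than those of the members' representative probe sets. It therefore does not show how well small or joint shifts would be found.

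Alternatives changed the filter (probe sets under the 25th percentile or the median of mean signal removed, or controls retained), the normalisation (array medians subtracted, or quantiles), the model (mean-variance trend, array weights, replicate number as a block, muscle marker mean as a covariate, or the compared groups alone), the arrays (each omitted in turn), the summary of a gene (mean of its probe sets) and the threshold (0.01). The muscle marker mean itself tended to differ between the groups. In a call lost with it, muscle content and a less precise estimate cannot be told apart.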

Additional observations from a re-analysis of the deposited data

Results flagged for a closer look

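Of the members' 74 probe sets, 5 changed differently at 21 dpi and at 2 dpi relative to the same uninjured arrays, when 21.8% of all probe sets did. The test, in limma, was of the 2 wound groups against each other. RPL7L1 was 0.39 higher at 21 dpi than at 2 dpi (adjusted p by limma 0.0320), its probe set being the only representative one among the 5. The further probe set of RPL31 differed by -0.91 (0.0100), those of RPS10 by -0.73 (0.0103) and 0.34 (0.0419), and that of RPL23, which lay under the lower quartile of the arrays, by -0.29 (0.0320), all as adjusted p by limma. In RPS10 the further probe sets of the same gene thus passed the threshold in opposite directions while the bright one differed by 0.06.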

How the results depend on the processing

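With the alternatives tried, no change of a described gene that had passed the threshold turned its sign, and the medians of the 59 members moved by less than their spread between arrays, though without 1 array that at 2 dpi lay between -0.09 and 0.00 and that at 14 dpi between -0.10 and -0.03, and with array medians subtracted that at 2 dpi was -0.02. Counts of members called moved between 0 and 3. Array weights gave 1 higher at 2 dpi (RPL19), 1 at 21 dpi (RPL34) and 1 at 21 against 14 dpi (RPL30), and 3 higher (RPL12, RPL7L1 and RPS24) and 1 lower (RPL19) at 21 against 2 dpi. A trend gave 1 lower at 2 dpi (RPL12). The higher count of 1 at 21 against 2 dpi became 0 at a threshold of 0.01, with array medians subtracted, with the muscle covariate and with only the 2 groups, and the lower count became 1 with only the 2 groups or below-median probe sets left out (RPL19) and with the mean of a gene's probe sets (RPL31). Leaving out 1 array gave 0 to 1 higher and 0 to 1 lower at 2 dpi and at 21 against 2 dpi, 0 to 1 higher at 21 dpi, and 0 to 0 for the other counts.

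For the assembly factors and the mitochondrial ribosomal proteins the alternatives were added after seeing the data. The lower counts of assembly factors were 2, 1 and 7 at 2, 14 and 21 dpi at a threshold of 0.01, 24, 24 and 52 with array weights, 2 at 2 dpi with the muscle covariate, 2 and 0 at 2 and 14 dpi with only the groups compared, and 3 to 23, 7 to 22 and 9 to 29 without 1 array. Those of mitochondrial ribosomal proteins were 2, 1 and 5 at a threshold of 0.01, 17 and 28 at 14 and 21 dpi with array weights, 1 at 2 dpi with the muscle covariate, 3 and 0 at 2 and 14 dpi with only the groups compared, and 4, 5 and 4 at 14 dpi with a trend, array medians subtracted and the replicate block.

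Arrays of the same replicate number were not alike as a rule. Deviations correlated above 0.1 in 5 of 18 same-numbered pairs (r from -0.65 to 0.48), and 4 of 12 arrays were closest to their own number. This cannot exclude that arrays of different groups shared an animal, since the muscle markers also varied widely within groups. With the replicate number as a block, RPL7L1 kept its call (adjusted p by limma 0.0389), while the upward RPS10 probe set lost it (0.0679). The causes of these moves were not tested.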
